A study of Mus musculus with 12 samples.

Results

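Ntrk2, Ret and Fzd4, with Rasgrp3 and Dennd2a, are 5 of the 45777 genes counted in 12 mouse tumours. They were chosen by symbol from measured values: earlier results of these data had shown them lower in MAVS-reconstituted than in MAVS-knockout tumours, mainly under an MPS1 inhibitor. All 5 passed the filter on low counts that 17885 genes passed. Each difference that involves MAVS is therefore given for these 5 genes as a description, with no test. The name of the set held for all 5 under the inhibitor. It did not hold in control tumours for Ntrk2 and Fzd4, which were higher with MAVS there.

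RNA came from subcutaneous tumours of 393P, a mouse lung cancer cell line, grown in 8-week-old male 129S2/SvPasCrl mice. The 4 groups of 3 libraries were MAVS-reconstituted tumours under the inhibitor, MAVS-knockout tumours under the inhibitor, MAVS-reconstituted control tumours and MAVS-knockout control tumours. MAVS is the mitochondrial adaptor of the cytosolic RNA sensors, and titles of the knockout group read Luc, a name not explained in the sources used here. The inhibitor, BAY-1217389 at 5 mg/kg, was given 2 times a day for 2 days and blocks MPS1, the spindle checkpoint kinase encoded by Ttk, with tumours taken the day after. Genotype belongs to the injected cells, so other differences between the cell populations cannot be told apart from MAVS, and host cells in the tumour are not covered by it. The labels do not say that each library was a separate animal, so p-values measure the spread between these libraries. Library totals ran from 52983715 to 69108411 counts, at which 3 counts correspond to 0.0422 to 0.0593 CPM, the library-scaled count after TMM normalization. Mavs was higher in all reconstituted than in all knockout libraries, with means of 55.5 and 71.0 CPM in reconstituted inhibitor and control tumours and 41.3 and 42.9 CPM in the knockout groups. Ttk averaged 16.7 to 19.9 CPM per group. Epithelial markers were abundant, with Krt8 at 2154 to 2537 CPM on average per group. Reconstituted inhibitor replicate 1 stood apart from the other 11 libraries on the first principal component.

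Ntrk2 encodes TrkB, the receptor tyrosine kinase for brain-derived neurotrophic factor and neurotrophin-4. Ret encodes the receptor tyrosine kinase that glial cell line-derived ligands engage through GFRA coreceptors. Fzd4 encodes Frizzled-4, a receptor for Wnt proteins and for norrin that works with LRP5, LRP6 and TSPAN12 and is best known in retinal blood vessels. Both kinases are best known in neurons and pass their signal to RAS and ERK through adaptor proteins, and RET is rearranged in some human lung cancers. Rasgrp3 encodes an exchange factor that loads RAS and RAP1 with GTP in response to diacylglycerol. Dennd2a encodes a DENN domain protein, described in human cells as an exchange factor for RAB9.

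The promoter windows are shown because the 5 genes differ in their pattern over the groups. Each window holds 250 bases before and 50 after a RefSeq start site (GRCm38.p6), printed 5′ to 3′ on the gene's strand, with motif matches in capitals. Windows were found for 4 of the 5 genes, Ret being the other one.
Ntrk2, chr13:58806319-58806618, plus strand: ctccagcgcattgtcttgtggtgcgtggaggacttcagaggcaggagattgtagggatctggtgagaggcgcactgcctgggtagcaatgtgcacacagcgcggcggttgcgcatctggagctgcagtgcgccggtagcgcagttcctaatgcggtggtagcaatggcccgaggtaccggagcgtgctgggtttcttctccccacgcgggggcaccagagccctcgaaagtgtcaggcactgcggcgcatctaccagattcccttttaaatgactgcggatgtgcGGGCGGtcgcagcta
Fzd4, chr7:89404116-89404415, plus strand: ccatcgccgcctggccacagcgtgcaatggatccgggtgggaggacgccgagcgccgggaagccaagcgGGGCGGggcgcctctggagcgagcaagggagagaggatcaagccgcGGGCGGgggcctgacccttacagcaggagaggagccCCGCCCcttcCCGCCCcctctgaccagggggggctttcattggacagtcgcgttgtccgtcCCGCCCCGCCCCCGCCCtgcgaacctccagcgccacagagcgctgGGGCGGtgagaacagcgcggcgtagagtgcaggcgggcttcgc
Rasgrp3, chr17:75435655-75435954, plus strand: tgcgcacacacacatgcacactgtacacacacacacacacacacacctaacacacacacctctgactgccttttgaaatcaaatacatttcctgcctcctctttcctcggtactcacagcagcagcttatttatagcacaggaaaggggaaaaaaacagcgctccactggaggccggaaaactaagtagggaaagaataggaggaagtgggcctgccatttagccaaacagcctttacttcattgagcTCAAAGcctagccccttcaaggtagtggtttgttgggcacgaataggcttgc
Dennd2a, chr6:39557785-39558084, minus strand: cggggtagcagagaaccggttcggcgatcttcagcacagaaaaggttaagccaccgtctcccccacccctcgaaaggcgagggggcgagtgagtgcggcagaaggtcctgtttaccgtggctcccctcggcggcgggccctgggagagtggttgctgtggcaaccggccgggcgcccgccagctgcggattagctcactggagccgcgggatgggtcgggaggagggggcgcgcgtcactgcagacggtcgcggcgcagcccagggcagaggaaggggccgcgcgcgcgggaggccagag

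The motifs searched, on both strands, were TGANTCA (AP-1), TCAAAG (TCF/LEF), TGACGTCA (cyclic AMP element) and GGGCGG (GC box). The Ntrk2 window held 1 GC box, which begins 35 bases after the start site. The Fzd4 window held 8 GC boxes, 3 of which lie end to end shortly before the start site, the first of them sharing 1 base with the next. One TCAAAG lay in the Rasgrp3 window, and the Dennd2a window and a second Rasgrp3 window further downstream held no match. Among all 32851 windows of this length, GGGCGG was found in 35.7%, TCAAAG in 16%, TGANTCA in 7.81% and TGACGTCA in 1.79%. The GC content was 61.3% for Ntrk2, 72.7% for Fzd4, 48.3% for the printed Rasgrp3 window and 70.7% for Dennd2a, beside a median of 52.7% over all windows. These matches describe letters and not binding.

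Per kilobase of exon (GENCODE M21), Rasgrp3 had the highest level and Ntrk2 the lowest. The mean over the 12 libraries was 4.28 CPM per kb for Rasgrp3, 1.25 for Dennd2a, 0.484 for Fzd4, 0.429 for Ret and 0.132 for Ntrk2. Fzd4 and Ret lay within each other's spread (SD 0.180 and 0.241). The lowest raw count of any of the 5 genes in any library was 52, for Ntrk2 in reconstituted inhibitor replicate 1. Ntrk2 yields several transcripts (10 in GENCODE M21, 7 of them coding), and the table sums them, so full-length TrkB and forms without the kinase cannot be told apart.

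Ntrk2 (gene ID 18212, chr13:58806472-59133970, plus strand) was lowest in reconstituted tumours under the inhibitor. Its level in replicates 1, 2 and 3 was 1.03, 1.33 and 1.55 CPM in reconstituted inhibitor tumours, against 3.26, 3.55 and 3.20 CPM in knockout inhibitor tumours. In controls it was 3.62, 4.68 and 2.43 CPM in reconstituted tumours, against 2.25, 1.79 and 1.86 CPM in knockout tumours. The groups did not overlap in either pair, and the direction was opposite in the pairs: all reconstituted libraries were lower under the inhibitor and all were higher in controls. Over all genes, reconstituted libraries were all lower under the inhibitor for 9.77% and all higher in controls for 15.6%. The fitted log2 difference, reconstituted minus knockout, was -1.35 ± 0.25 under the inhibitor and 0.86 ± 0.24 in controls (SE, edgeR). From highest to lowest the groups ran reconstituted control, knockout inhibitor, knockout control and reconstituted inhibitor. Only the first of these neighbours overlapped each other.

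Fzd4 (gene ID 14366, chr7:89404366-89410110, plus strand, 1 transcript) had the same shape. It had 1.17, 1.51 and 2.25 CPM in reconstituted inhibitor tumours, against 5.45, 4.20 and 3.41 CPM in knockout inhibitor tumours. In controls it had 4.07, 3.66 and 4.20 CPM in reconstituted tumours, against 3.12, 2.78 and 3.21 CPM in knockout tumours. Again neither pair of groups overlapped, as for 9.77% of genes lower under the inhibitor and 15.6% higher in controls. The direction turned round between treatments, with log2 differences of -1.40 ± 0.25 under the inhibitor and 0.39 ± 0.24 in controls (SE). Knockout inhibitor tumours averaged highest, overlapping reconstituted controls, followed by knockout controls and, apart from all others, reconstituted inhibitor tumours. Reconstituted inhibitor replicate 1 was the lowest library and replicate 3 the highest of its group.

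Rasgrp3 (gene ID 240168, chr17:75435870-75529054, plus strand) was low in reconstituted inhibitor tumours alone. The values were 12.9, 18.7 and 16.6 CPM in reconstituted inhibitor tumours, against 36.2, 28.2 and 25.5 CPM in knockout inhibitor tumours. In controls they were 31.9, 29.1 and 23.2 CPM in reconstituted tumours, against 24.4, 24.1 and 29.1 CPM in knockout tumours. The inhibitor pair did not overlap, as for 9.77% of genes in that direction, and the control pair did. The log2 differences were -0.90 ± 0.17 and 0.12 ± 0.17 (SE). The other groups, knockout inhibitor, reconstituted control and knockout control in falling order of the mean, lay within each other's spread.

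**Figure D1:**
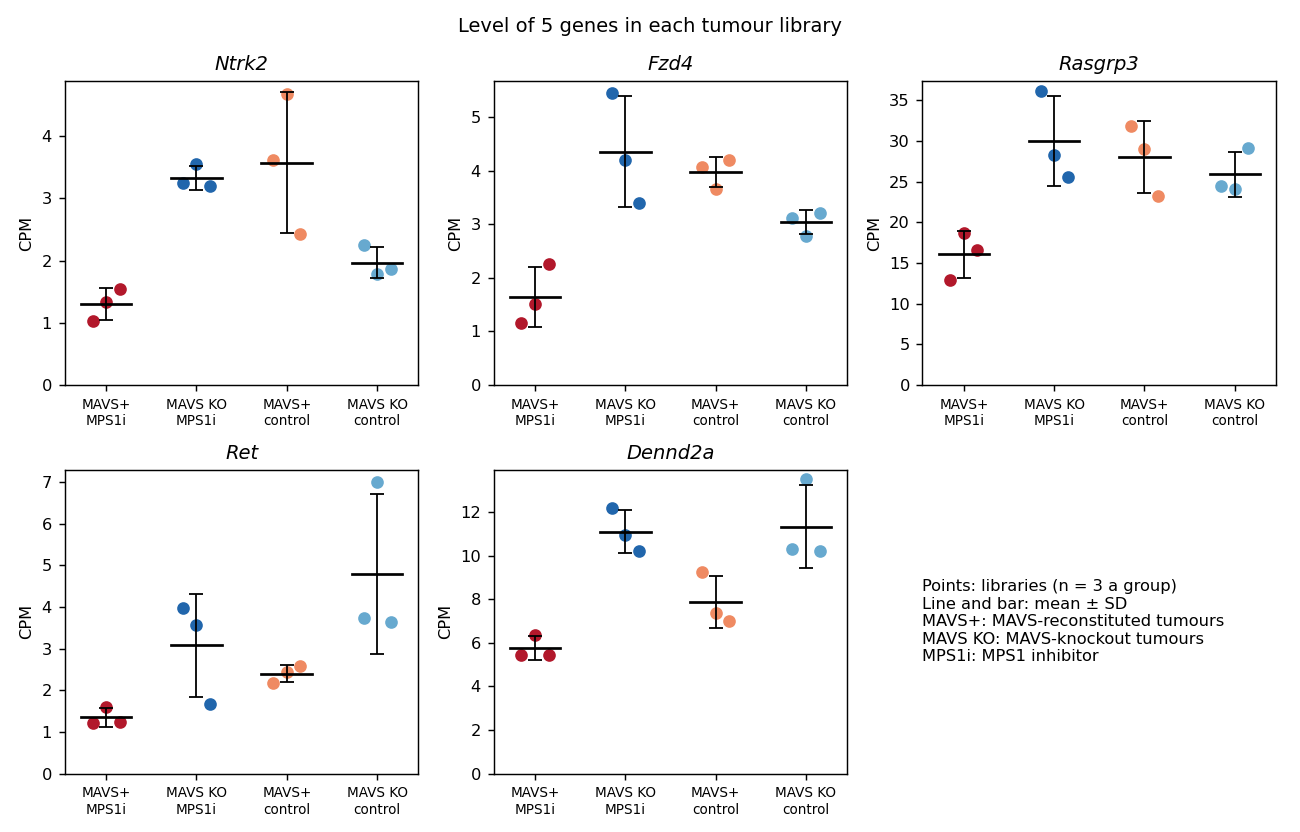
Level of the 5 genes in CPM (linear axis from 0) in each library of the 4 groups; points are libraries in replicate order, lines and bars the mean ± SD (n = 3). In every panel the reconstituted inhibitor tumours are the lowest group, while the knockout control tumours are low for Ntrk2 and Fzd4 and high for Ret and Dennd2a.

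Ret (gene ID 19713, chr6:118151748-118197744, minus strand) was lower with MAVS under both treatments. Its level was 1.21, 1.61 and 1.24 CPM in reconstituted inhibitor tumours, against 3.98, 3.57 and 1.68 CPM in knockout inhibitor tumours. In controls it was 2.18, 2.43 and 2.58 CPM in reconstituted tumours, against 3.73, 7.0 and 3.63 CPM in knockout tumours. No pair overlapped, although knockout inhibitor replicate 3 lay close to the highest reconstituted inhibitor library. The log2 difference was -1.18 ± 0.34 under the inhibitor and -1.0 ± 0.33 in controls (SE), and the control difference was -0.62 without knockout control replicate 2, the library at 7.0 CPM. Knockout controls averaged highest, then knockout inhibitor tumours, reconstituted controls and reconstituted inhibitor tumours, with overlap between the first neighbours and between the middle ones.

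Dennd2a (gene ID 209773, chr6:39462374-39558145, minus strand) followed the order of Ret. It had 5.45, 6.38 and 5.46 CPM in reconstituted inhibitor tumours, against 12.2, 10.9 and 10.2 CPM in knockout inhibitor tumours. In controls it had 9.25, 7.37 and 7.02 CPM in reconstituted tumours, against 10.3, 13.5 and 10.2 CPM in knockout tumours. All reconstituted libraries lay below all knockout libraries over both treatments, as for 0.783% of genes, with log2 differences of -0.94 ± 0.16 under the inhibitor and -0.52 ± 0.16 in controls (SE). Knockout tumours with and without the inhibitor overlapped, and the other neighbours did not. A noncoding transcript on the opposite strand shares 71 of its 7229 exon bases, and the sources used here do not say whether counting used strand.

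Ret and Dennd2a were thus lower with MAVS under both treatments, Ntrk2 and Fzd4 were crossed, and Rasgrp3 did neither. Averaged over treatments, the MAVS difference was -1.09 ± 0.24 for Ret and -0.73 ± 0.11 for Dennd2a on the log2 scale (SE). It was -0.51 ± 0.17 for Fzd4, -0.39 ± 0.12 for Rasgrp3 and -0.25 ± 0.17 for Ntrk2; the differences of Ntrk2 and Fzd4 under the 2 treatments had opposite signs. Libraries that were lower with MAVS under both treatments, with no overlap in either, were found for 227 of 17885 genes (1.27%), among them Ret and Dennd2a. The crossed pattern of Ntrk2 and Fzd4, with the inhibitor libraries also lower in reconstituted and higher in knockout tumours, was found for 55 genes (0.308%). All 5 genes were among the 544 (3.04%) whose reconstituted inhibitor libraries lay below the other 9 libraries. The choice of the genes fixes part of these patterns.

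By edgeR's quasi-likelihood test across all genes, Ntrk2, Fzd4, Rasgrp3 and Dennd2a were among the genes called for the MAVS effect under the inhibitor, and Ret was not. That comparison called 116 genes (0.649%) in all, 23 of them lower (0.129%), and libraries that did not overlap with MAVS lower were found for 9.77%. In controls 0 of the 5 were called, beside 25 genes in all (0.14%), and averaged over treatments Ret and Dennd2a were called, beside 279 (1.56%). These comparisons chose the genes, so nothing is read from the counts. Whether a call was kept under other settings describes the fit and is no test of the 5 genes. Over 19 other settings Dennd2a kept its call under the inhibitor in 13, Fzd4 in 9, Ntrk2 in 7 and Rasgrp3 in 6. With 1 of the 12 libraries left out Dennd2a was called in 8, Fzd4 in 4, Ntrk2 in 3 and Rasgrp3 in 3 of 12 fits, and none of the 4 was called without knockout inhibitor replicate 1, 2 or 3 or without reconstituted inhibitor replicate 1. Averaged over treatments Dennd2a kept its call in all 18 other settings, whereas Ret kept it in 3 of 18, with an adjusted p of up to 0.124 (edgeR). Among the fits without 1 library Ret was called only without knockout inhibitor replicate 3.

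**Figure D2:**
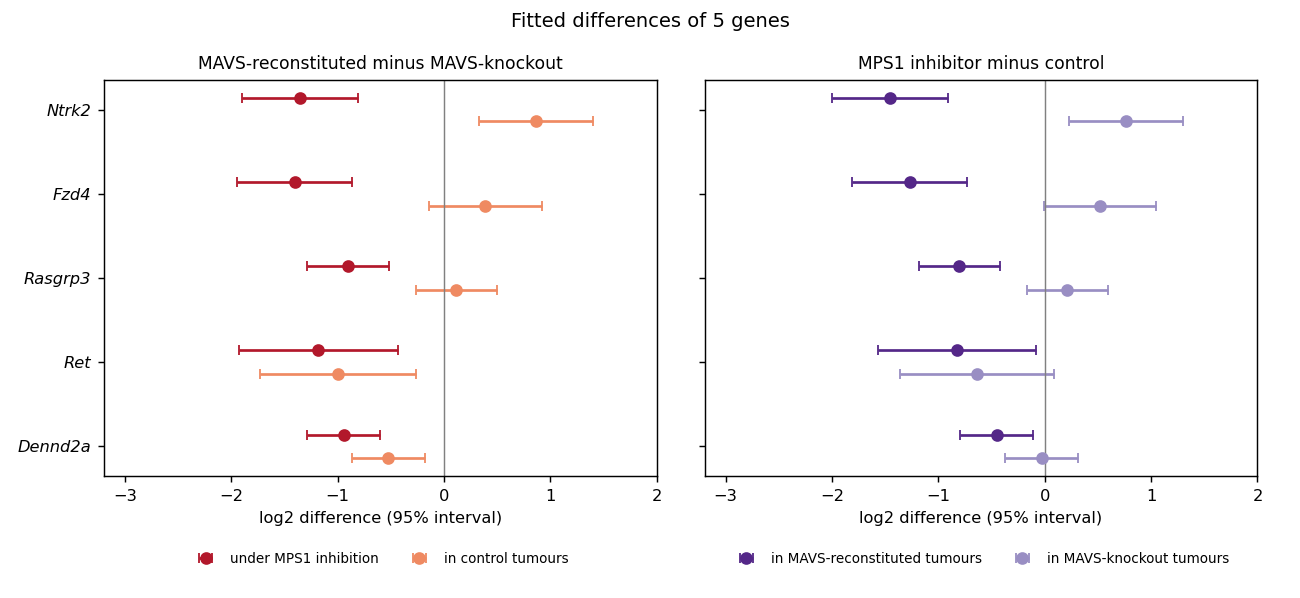
Log2 difference with its 95% interval from the edgeR fit for each gene, on the left reconstituted minus knockout and on the right inhibitor minus control. Under the inhibitor all 5 MAVS differences lie below 0, from -1.40 for Fzd4 to -0.90 for Rasgrp3, whereas in controls Ntrk2 (0.86) and Fzd4 (0.39) lie above 0 and Ret (-1.0) and Dennd2a (-0.52) below.

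Within each genotype the inhibitor comparison called 0 genes (0%) by edgeR. In reconstituted tumours 5827 genes had an unadjusted p below 0.05 and DESeq2 called 3668, and in knockout tumours 305 genes had one, with 3 called by DESeq2 and 1 by limma-voom. In reconstituted tumours the inhibitor libraries lay below the control libraries without overlap for all 5 genes, as for 14.8% of genes. The log2 differences there, inhibitor minus control, were -1.46 ± 0.25 for Ntrk2, -1.27 ± 0.25 for Fzd4, -0.82 ± 0.34 for Ret, -0.80 ± 0.17 for Rasgrp3 and -0.45 ± 0.16 for Dennd2a (SE). In knockout tumours they were 0.76 ± 0.24 for Ntrk2 and 0.52 ± 0.24 for Fzd4, whose inhibitor libraries lay above the controls without overlap, as for 4.47% of genes. Rasgrp3 (0.21 ± 0.17), Dennd2a (-0.03 ± 0.15) and Ret (-0.64 ± 0.33) overlapped there. The difference between these effects was -2.22 ± 0.35 for Ntrk2, -1.79 ± 0.34 for Fzd4, -1.02 ± 0.25 for Rasgrp3, -0.42 ± 0.22 for Dennd2a and -0.19 ± 0.47 for Ret. For that difference edgeR called 0 genes (0%), with 4421 at an unadjusted p below 0.05 and 1365 called by DESeq2. These comparisons share libraries with the choice of the genes and are descriptions.

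The inhibitor effect averaged over genotypes was not a comparison that chose the genes, and it was tested. It still uses the reconstituted inhibitor libraries, the lowest for all 5 genes, so the test is not fully free of the choice. None of the 5 genes passed (edgeR quasi-likelihood test, adjusted p = 0.522 for each), and 0 of 17885 genes (0%) were called, with 1399 genes at an unadjusted p below 0.05 and 1 called by DESeq2. The log2 difference of Ret was -0.73 ± 0.24, with a 95% interval of -1.25 to -0.21 and an unadjusted p of 0.0101, and 4 of the 6 inhibitor libraries lay below every control library. Fzd4 differed by -0.38 ± 0.17, Ntrk2 by -0.35 ± 0.17, Rasgrp3 by -0.30 ± 0.12 and Dennd2a by -0.24 ± 0.11 (SE), with overlapping libraries. The intervals of Fzd4 (-0.75 to 0.00054), Ntrk2 (-0.72 to 0.03) and Dennd2a (-0.48 to 0.0013) reached 0, and that of Rasgrp3 (-0.56 to -0.03) did not.

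Over the 12 libraries the log2 levels of Fzd4 and Rasgrp3 correlated most closely (Pearson r = 0.90), followed by Ret with Dennd2a (0.86) and Ntrk2 with Fzd4 (0.86). Ntrk2 and Ret were the least alike (0.32). Without the reconstituted inhibitor libraries r was -0.61 for Ntrk2 with Ret, 0.66 for Ret with Dennd2a and 0.67 for Fzd4 with Rasgrp3. Within groups r was -0.07, 0.62 and 0.56 for the same pairs. The points share libraries and their scaling, and no p is given.

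Among 11994 genes whose level averaged 1 or more on the log2 CPM scale, those most like each gene over the 12 libraries were named by Pearson r. For Ntrk2 they were Eif3j1, a translation initiation subunit (r = 0.92), Rtn1, a reticulon of the endoplasmic reticulum (0.92), and Enah, an actin regulator (0.92). For Fzd4 they were Itgav, the integrin alpha V chain (0.97), Shroom4, a cytoskeletal protein (0.97), and Tmed5, a cargo protein of the early secretory pathway (0.96). Rasgrp3 was followed by Utp20, a ribosome assembly factor (0.96), Qk, an RNA-binding protein (0.96), and Orc2, a replication origin subunit (0.96). Ret was closest to Nrep (0.91), Mapk8, the kinase JNK1 (0.90), and Armcx2 (0.90). Dennd2a was closest to Errfi1, a feedback inhibitor of the EGF receptor (0.95), Lpar1, a lysophosphatidic acid receptor (0.94), and Csf3, the granulocyte colony-stimulating factor (0.94).

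The 6 genes closest to Ret and Dennd2a averaged highest in knockout controls, and all 15 averaged lowest in reconstituted inhibitor tumours. Rtn1 averaged 1.80 ± 0.36 CPM in reconstituted inhibitor and 3.36 ± 0.41 CPM in knockout inhibitor tumours, and 3.79 ± 0.27 CPM in reconstituted and 2.63 ± 0.08 CPM in knockout controls (SD, n = 3 each). Its order of groups was that of Ntrk2. Csf3 averaged 4.91 ± 0.55 CPM in reconstituted inhibitor and 9.25 ± 1.30 CPM in knockout inhibitor tumours, and 6.11 ± 1.02 CPM in reconstituted and 12.4 ± 1.51 CPM in knockout controls, the order of Dennd2a. Since they were picked for likeness over the same libraries, their differences have no test here.

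**Figure D3:**
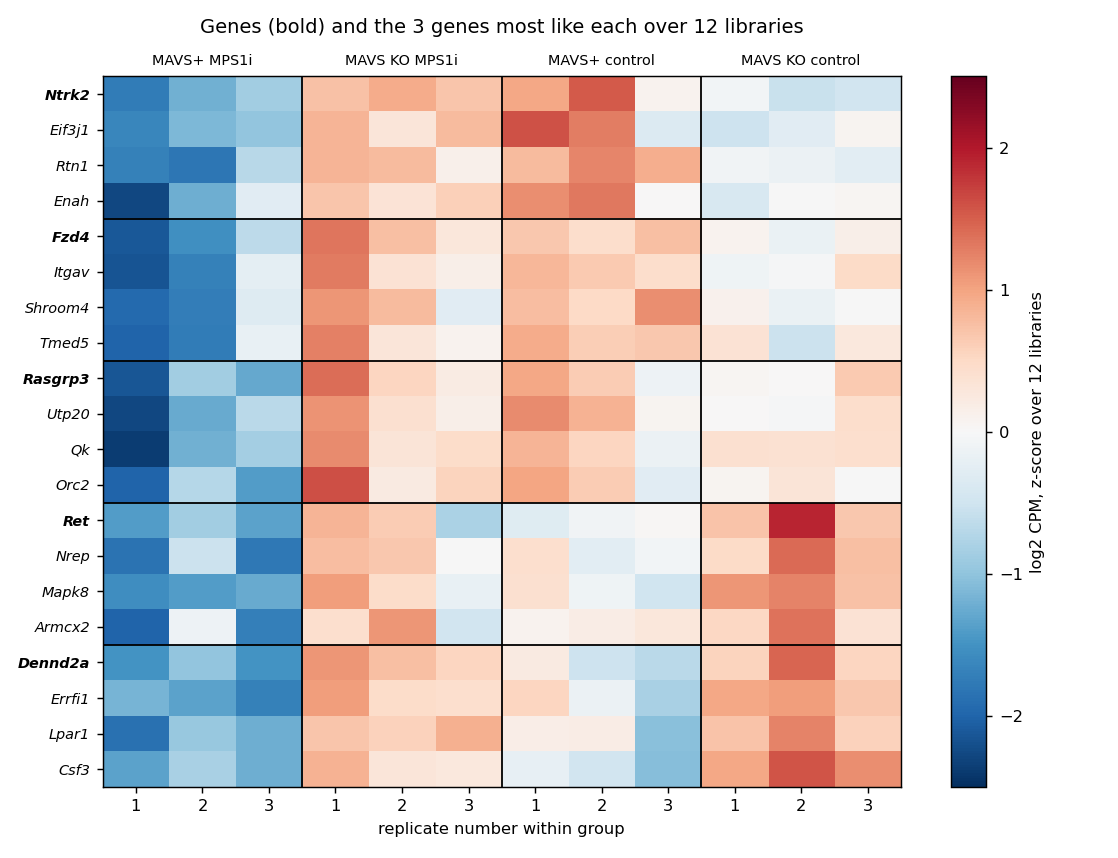
Log2 CPM of the 5 genes (bold) and the 3 genes most like each, as z-scores over the 12 libraries (columns, grouped, with replicate numbers); red is high and blue low. Group means are lowest in reconstituted inhibitor tumours in every row, and knockout control tumours rank highest in the Ret and Dennd2a blocks and only above reconstituted inhibitor tumours in the Ntrk2, Fzd4 and Rasgrp3 blocks.

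RET ligands and coreceptors were at low levels. Of 10 such genes 8 were tested and 0 were called by edgeR in any of the 7 comparisons, with a median log2 MAVS difference under the inhibitor of -0.14, beside 0.01 over all genes. For that MAVS effect 19.7% of all genes had an unadjusted p below 0.05 and DESeq2 called 1243 (6.95%), against 0 and 0 of these 8. DESeq2 called 1 of the 8 for the inhibitor effect in reconstituted tumours, where it called 20.5% of all genes. Gdnf, the founding RET ligand, averaged 6.47 ± 2.20 CPM in reconstituted inhibitor and 8.31 ± 0.81 CPM in knockout inhibitor tumours, and 6.57 ± 0.69 CPM in reconstituted and 6.85 ± 1.58 CPM in knockout controls (SD, n = 3 each). Its coreceptor Gfra1 averaged 3.82 ± 2.47 and 6.46 ± 0.26 CPM in reconstituted and knockout inhibitor tumours, and 7.87 ± 3.86 and 5.68 ± 0.93 CPM in reconstituted and knockout controls. The libraries of Gdnf and Gfra1 overlapped in each MAVS pair. Gfra2, the neurturin coreceptor, averaged 2.46 ± 1.00 and 3.63 ± 1.76 CPM in reconstituted and knockout inhibitor tumours, and 3.75 ± 0.32 and 5.05 ± 4.58 CPM in reconstituted and knockout controls. The ligands Nrtn and Artn and the artemin coreceptor Gfra3 averaged below 0.5 CPM in every group.

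On the neurotrophin side 7 of 12 genes were tested and 0 were called by edgeR in any comparison, the median log2 MAVS difference being -0.23 under the inhibitor and 0.11 in controls. Under the inhibitor 3 had an unadjusted p below 0.05, beside 19.7% of all genes, and DESeq2 called 1, beside 6.95%. For the inhibitor effect in reconstituted tumours and for the MAVS effect averaged over treatments DESeq2 called 1 each, beside 20.5% and 5.7% of all genes. Bdnf, the main ligand of TrkB, averaged 1.81 ± 0.35 CPM in reconstituted inhibitor and 3.23 ± 0.39 CPM in knockout inhibitor tumours (log2 difference -0.84 ± 0.22, adjusted p = 0.0947, edgeR). These groups did not overlap, as for 9.77% of all genes in that direction. In controls Bdnf averaged 2.01 ± 0.42 CPM in reconstituted and 2.49 ± 0.32 CPM in knockout tumours, with overlap. Ngfr, the p75 neurotrophin receptor, averaged 0.67 ± 0.65 and 1.96 ± 0.46 CPM in reconstituted and knockout inhibitor tumours (-1.54 ± 0.62, adjusted p = 0.209), and 2.21 ± 0.45 and 1.80 ± 1.09 CPM in reconstituted and knockout controls. Ntf5, which encodes neurotrophin-4, stayed between 0.50 and 0.70 CPM on average per group. Ntf3 was at 0 in all but the knockout inhibitor group, where it averaged 0.03 CPM, below the level of 3 counts.

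For Fzd4, norrin (Ndp) had 0 counts in all 12 libraries, below the 0.0422 to 0.0593 CPM that 3 counts give. Other Frizzled genes held 8 tested of 9 and 0 called by edgeR or DESeq2 in any comparison, with a median log2 MAVS difference of -0.12 under the inhibitor (2 at an unadjusted p below 0.05). The most abundant, Fzd1, averaged 63.4 ± 15.1 and 83.6 ± 5.94 CPM in reconstituted and knockout inhibitor tumours (-0.40 ± 0.17, adjusted p = 0.223), and 85.3 ± 7.62 and 82.3 ± 12.7 CPM in reconstituted and knockout controls. The coreceptor Lrp6 averaged 70.1 ± 13.8 and 92.2 ± 11.6 CPM in reconstituted and knockout inhibitor tumours, with overlap, and 98.0 ± 4.82 and 94.8 ± 11.4 CPM in reconstituted and knockout controls. Lrp5 averaged 111 ± 16.8 and 119 ± 12.7 CPM in reconstituted and knockout inhibitor tumours, and Tspan12 1.31 ± 0.53 and 1.85 ± 0.32 CPM, both with overlap. Of 23 tested Wnt coreceptors and surface regulators (27 listed) 19 had a negative MAVS difference under the inhibitor and 10 in controls, beside 48.9% and 49.6% of all genes, with medians of -0.30 and 0.05 and 0 called by edgeR. Under the inhibitor 6 of them had an unadjusted p below 0.05, beside 19.7% of all genes, and DESeq2 called 1, beside 6.95%. DESeq2 called 3 for the inhibitor effect in reconstituted tumours (20.5% of all genes) and 1 for the difference between the inhibitor effects (7.63%).

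Among 13 tested Wnt ligands (20 listed) edgeR called 1, Wnt7b, a ligand of epithelial cells, which was lower with MAVS averaged over treatments (log2 difference -0.39 ± 0.07, adjusted p = 0.0164, edgeR). It averaged 173 ± 13.97 and 219 ± 19.5 CPM in reconstituted and knockout inhibitor tumours, and 170.2 ± 8.10 and 229 ± 17.0 CPM in reconstituted and knockout controls. All reconstituted libraries of Wnt7b lay below all its knockout libraries, as for 0.783% of all genes. Without knockout inhibitor replicate 1 its adjusted p was 0.0543. In that comparison 84 of 17885 genes (0.47%) were called lower. Of 9 tested Wnt target genes (10 listed) 8 had a negative MAVS difference under the inhibitor and 3 in controls, beside 48.9% and 49.6% of all genes, and 0 were called by edgeR in any comparison. Their log2 differences under the inhibitor ran from -6.13 to 0.39, with a median of -0.31. The lowest was that of Notum, which was at 0 in reconstituted inhibitor tumours, so the size of its difference is not a measured fold. There 4 had an unadjusted p below 0.05 and DESeq2 called 2, beside 19.7% and 6.95% of all genes. DESeq2 called 1 each for the MAVS effect averaged over treatments (5.7% of all genes), the inhibitor effect in reconstituted tumours (20.5%) and the difference between the inhibitor effects (7.63%). Axin2, the feedback gene of beta-catenin, averaged 6.67 ± 3.84 and 7.15 ± 1.68 CPM in reconstituted and knockout inhibitor tumours, and 7.90 ± 1.51 and 5.81 ± 1.04 CPM in reconstituted and knockout controls.

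Downstream of the kinases, 21 of 23 adaptor genes were tested and Irs1, the insulin receptor substrate, was lower with MAVS averaged over treatments (-0.44 ± 0.09, adjusted p = 0.0330, edgeR). Irs1 averaged 48.3 ± 8.76 and 73.1 ± 2.66 CPM in reconstituted and knockout inhibitor tumours, and 63.5 ± 2.73 and 77.2 ± 8.07 CPM in reconstituted and knockout controls. That call was lost in 9 of 18 other settings, with an adjusted p of up to 0.0967, among them each knockout inhibitor library and each reconstituted control library left out. In that comparison DESeq2 called 3 adaptors, beside 5.7% of all genes. All 24 RAS exchange factors, GTPases and RAS GAPs were tested and 0 were called by edgeR in any comparison, with medians of -0.06 under the inhibitor and 0.02 in controls. Under the inhibitor 3 had an unadjusted p below 0.05 and DESeq2 called 2, beside 19.7% and 6.95% of all genes. DESeq2 called 5 for the inhibitor effect in reconstituted tumours (20.5% of all genes) and 3 for the difference between the inhibitor effects (7.63%). Rasgrp1, an exchange factor of the same family as Rasgrp3, averaged 16.3 ± 2.54 and 15.03 ± 2.64 CPM in reconstituted and knockout inhibitor tumours, and 17.4 ± 0.70 and 16.8 ± 2.67 CPM in reconstituted and knockout controls, all overlapping.

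Of 16 ERK target and feedback genes 5 fell with MAVS averaged over treatments, Spry1, Ier3, Spry2, Spry4 and Dusp6, 11 did not pass and 0 rose, beside 0.47% of all genes called lower. All 16 differences were negative, with a median of -0.46 on the log2 scale, beside 49.9% negative over all genes. DESeq2 called 8 of the 16, beside 5.7% of all genes in that comparison. Earlier results of these data were known when the list was written, so it is not independent evidence of a direction. Spry1, an inhibitor of receptor kinase signalling, averaged 20.9 ± 1.86 and 31.6 ± 5.47 CPM in reconstituted and knockout inhibitor tumours, and 23.2 ± 2.98 and 41.2 ± 4.67 CPM in reconstituted and knockout controls (-0.71 ± 0.10, adjusted p = 0.00687, edgeR). Spry2 averaged 12.1 ± 1.45 and 17.0 ± 1.24 CPM in reconstituted and knockout inhibitor tumours, and 12.8 ± 2.03 and 21.3 ± 2.87 CPM in reconstituted and knockout controls (adjusted p = 0.0145). For both genes all reconstituted libraries lay below all knockout libraries, as for 0.783% of all genes. Spry4 differed by -1.03 ± 0.20 (adjusted p = 0.0300) and Dusp6, a phosphatase of ERK, by -0.42 ± 0.09 (adjusted p = 0.0375). Ier3, an immediate early gene, averaged 83.0 ± 17.3 and 90.6 ± 20.5 CPM in reconstituted and knockout inhibitor tumours, and 44.7 ± 0.90 and 147 ± 33.9 CPM in reconstituted and knockout controls. Ier3 was also called in controls alone (-1.71 ± 0.21, adjusted p = 0.0137), where 0.0224% of genes were called lower. That call was lost without knockout control replicate 2 and without each of the reconstituted control libraries, 4 of 19 other settings, with an adjusted p of up to 0.0873 (edgeR). The count was 3 without knockout inhibitor replicate 1, 2 or 3, knockout control replicate 3, reconstituted control replicate 2 or 3, or reconstituted inhibitor replicate 2. Spry1, Spry2 and Ier3 were called averaged over treatments in each of 18 other settings.

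Of the other DENN domain genes and the Rab9 genes 16 of 17 were tested and 0 were called by edgeR in any comparison, with a median log2 MAVS difference of 0.05 under the inhibitor and 0.15 in controls. Under the inhibitor 7 had an unadjusted p below 0.05 and DESeq2 called 3, beside 19.7% and 6.95% of all genes. DESeq2 called 6 for the inhibitor effect in reconstituted tumours, beside 20.5%, and 1 for the MAVS effect averaged over treatments, beside 5.7%. Dennd2c, a relative of Dennd2a, averaged 5.63 ± 1.15 and 7.83 ± 0.16 CPM in reconstituted and knockout inhibitor tumours, and 7.59 ± 0.97 and 7.56 ± 0.14 CPM in reconstituted and knockout controls. Rab9, the GTPase named for DENND2A in human cells, averaged 50.2 ± 5.01 and 41.2 ± 2.72 CPM in reconstituted and knockout inhibitor tumours, and 40.1 ± 2.04 and 41.0 ± 1.49 CPM in reconstituted and knockout controls.

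**Figure D4:**
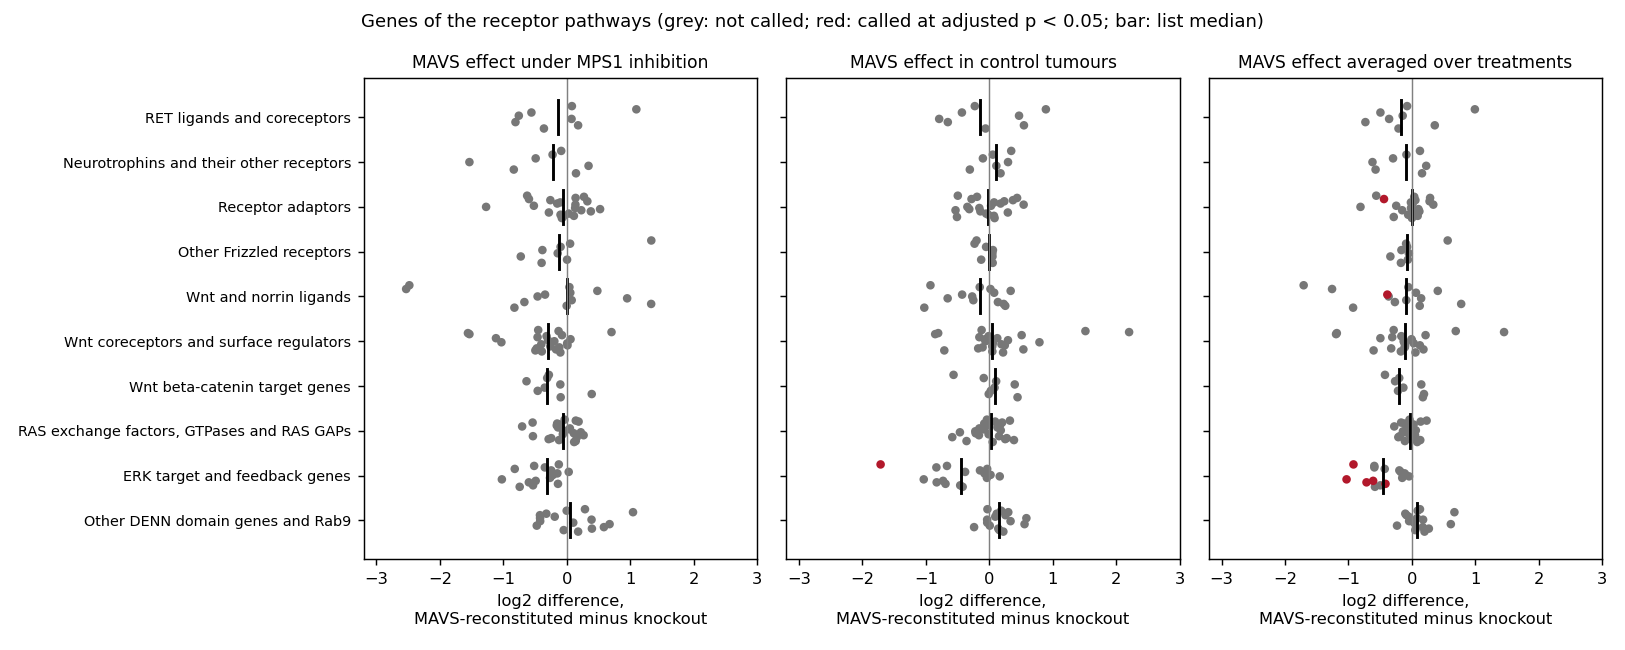
Log2 difference, reconstituted minus knockout, of each tested gene of 10 lists on the pathways of the receptors, under the inhibitor, in controls and averaged over treatments; red points were called and bars are list medians. Called points are Ier3 in controls and, averaged over treatments, 5 ERK target genes, Irs1 and Wnt7b; Notum, at 0 in reconstituted inhibitor tumours, is not drawn.

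Marker lists of other cell types are given beside these differences. In bulk tumours, fewer cells of a type and less RNA per cell cannot be told apart. The sum of 12 fibroblast and pericyte markers was 3099 to 9127 CPM in reconstituted inhibitor and 7910 to 15082 CPM in knockout inhibitor tumours, and 8845 to 9271 CPM in reconstituted and 8193 to 18346 CPM in knockout controls. The inhibitor groups overlapped, and all 12 differences were negative there, beside 48.9% of all genes (median -0.63 on the log2 scale, 0 called by edgeR, 2 at an unadjusted p below 0.05, 1 by DESeq2), and the lowest sum was that of reconstituted inhibitor replicate 1, the lowest library of all 5 genes. The sum of 14 endothelial markers was 342 to 406 CPM in reconstituted inhibitor and 402 to 449 CPM in knockout inhibitor tumours, and 403 to 486 CPM in reconstituted and 432 to 465 CPM in knockout controls, with 11 of 14 negative under the inhibitor (median -0.29, 0 called by edgeR, 5 at an unadjusted p below 0.05, 2 by DESeq2). For the MAVS effect under the inhibitor 19.7% of all genes had an unadjusted p below 0.05 and DESeq2 called 6.95%. No marker of either list was at 0. Their part in the levels of the 5 genes was not tested.

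Nerve and Schwann cell markers summed to 59.5 to 82.0 CPM in reconstituted inhibitor and 54.1 to 60.1 CPM in knockout inhibitor tumours, and 58.6 to 67.5 CPM in reconstituted and 53.8 to 63.4 CPM in knockout controls. Of 10 such markers 5 were tested and 0 were called by edgeR in any comparison. The MAVS difference was positive for 4 of the 5 under the inhibitor and for all 5 in controls, where 48.9% and 49.6% of all genes were negative. Under the inhibitor the median was 0.12 on the log2 scale, with 1 at an unadjusted p below 0.05 (edgeR) and 1 called by DESeq2. The neuronal gene Snap25 had 0 counts in all libraries and the Schwann cell factor Sox10 averaged at most 0.15 CPM per group. Epithelial markers summed to 6935 to 10128 CPM in reconstituted inhibitor and 7361 to 8190.4 CPM in knockout inhibitor tumours, and 6395 to 6814 CPM in reconstituted and 7507 to 7921 CPM in knockout controls. The highest sum was that of reconstituted inhibitor replicate 1. Under the inhibitor 4 of 7 tested epithelial markers had a positive MAVS difference, where 48.9% of all genes had a negative one. Among these 7, Epcam and Cldn4 were lower with MAVS averaged over treatments (-0.35 ± 0.07, adjusted p = 0.0310, and -0.57 ± 0.11, adjusted p = 0.0285, edgeR). In that comparison 0.47% of all genes were called lower, and the calls of Epcam and Cldn4 were lost in 8 and 7 of 18 other settings. T and NK cell markers summed to 21.6 to 27.5 CPM in reconstituted inhibitor and 12.7 to 19.5 CPM in knockout inhibitor tumours, and to 11.2 to 24.5 CPM in reconstituted and 10.0 to 18.4 CPM in knockout controls. All 7 differences were positive under the inhibitor, where 48.9% of all genes were negative. EdgeR called 0, while 4 had an unadjusted p below 0.05 (19.7% of all genes) and DESeq2 called 4 (6.95%). Macrophage markers summed to 1494 to 1805 CPM in reconstituted inhibitor and 1060.3 to 1423 CPM in knockout inhibitor tumours, and 1071 to 1381 CPM in reconstituted and 1307 to 1626 CPM in knockout controls. Under the inhibitor 6 of 7 macrophage differences were positive, with 0 called by edgeR, 4 at an unadjusted p below 0.05 and 1 by DESeq2. Skeletal muscle markers, at 66.0 to 2228 CPM in reconstituted inhibitor and 148 to 640.0 CPM in knockout inhibitor tumours, and red blood cell markers, at 50.6 to 112 CPM and 59.7 to 294 CPM in the same groups, varied widely within groups. In controls muscle markers summed to 1.31 to 653 CPM in reconstituted and 11.7 to 323 CPM in knockout tumours, and red blood cell markers to 32.5 to 53.5 CPM in reconstituted and 49.4 to 237 CPM in knockout tumours. All 5 red blood cell markers had a negative MAVS difference under the inhibitor and in controls (medians -1.25 and -1.85 on the log2 scale), with 0 called by edgeR in any comparison. In controls all 5 had an unadjusted p below 0.05 (edgeR), beside 18.7% of all genes, and DESeq2 called 1, beside 4.62%. Averaged over treatments DESeq2 called 3, beside 5.7%. B cell markers stayed below 0.7 CPM in sum in every library.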

How the data were processed

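Whole-number counts per gene were deposited by the authors for 12 tumour RNA libraries (stranded, poly(A)-selected, per the labels' protocols). Trimmomatic, HISAT2, StringTie and GRCm38 (mm10) are named in the submitters' processing notes, with no versions or roles, and the sources used here do not say whether counting used strand. Counts were analysed with edgeR 4.0.16 in R 4.3.3: genes were kept by filterByExpr (17885 of 45777), scaled by TMM and fitted over all 4 groups with the quasi-likelihood model. Genes were called at a Benjamini-Hochberg adjusted p below 0.05 over all genes tested, in 7 comparisons. DESeq2 1.42.0 and limma-voom (limma 3.58.1) were alternatives, with other scalings, no filter, a replicate block and each library left out. Levels are CPM after TMM scaling. The fit was tested on simulated data in which 100 genes changed by 1 on the log2 scale, up or down, in the reconstituted inhibitor group, and 100 others by 2. The changed genes had a mean above 1 CPM. Libraries were drawn independently with 1 spread per gene and no outlying library, so the numbers called may not hold for these data. Of the genes changed by 1 it called 74 for the MAVS effect under the inhibitor and 68 for the inhibitor effect in reconstituted tumours. For the difference between the inhibitor effects it called 40, so changes of this size can be missed. False calls were 5, 8 and 4. The 5 genes, the 10 pathway lists and the 9 marker lists were chosen with earlier results of these data known. Named by rule were the 5 genes, the 3 genes most like each by Pearson r (predicted genes left out), list genes called in any comparison or else the most abundant, the receptors' ligands and direct coreceptors, Mavs and Ttk. Axin2, Rasgrp1, Dennd2c, Rab9, Dennd4a, Krt8, Snap25 and Sox10 were named after their values were seen. Positions and promoter windows come from RefSeq (GRCm38.p6), exon lengths and transcript numbers from GENCODE M21.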

Additional observations from a re-analysis of the deposited data

Results flagged for a closer look

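For 3 of the genes examined here, the 5 members of the set and the list genes, every inhibitor library lay below every control library in reconstituted tumours and above every control library in knockout tumours. Ntrk2 had a difference between these inhibitor effects, reconstituted minus knockout, of -2.22 ± 0.35 on the log2 scale (SE, edgeR). For Fzd4 it was -1.79 ± 0.34. Both genes were chosen for a pattern of this kind, so the values are descriptions. Dennd4a, a DENN domain gene, had -0.75 ± 0.29 (adjusted p = 0.158, edgeR), which did not pass the test, with 30.7 ± 11.3 and 46.0 ± 3.20 CPM in reconstituted inhibitor and control tumours, and 41.0 ± 0.91 and 36.5 ± 1.97 CPM in knockout inhibitor and control tumours (SD, n = 3 each). The same was found for 178 of 17885 genes (0.995%), and the reverse for 156 (0.872%).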

How the results depend on the processing

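Counts of called genes depended on the tool and on single libraries. For the MAVS effect under the inhibitor (116 genes), DESeq2 called 1243, a fit of only the libraries compared 64, and leaving out 1 library gave 0 to 2816, with 0, 2 and 5 without knockout inhibitor replicate 3, 1 and 2, and 2816 without reconstituted inhibitor replicate 3. In controls (25 genes) DESeq2 called 827, library totals without TMM 41, limma-voom 15, only the libraries compared 10, and leaving out 1 library gave 0 to 80. Averaged over treatments (279) DESeq2 called 1020 and leaving out 1 library gave 115 to 331. For the inhibitor effect in reconstituted tumours (0) DESeq2 called 3668, only the libraries compared 1, and leaving out 1 library gave 0 to 5683. In knockout tumours (0) DESeq2 called 3, limma-voom 1, and leaving out 1 library 0 to 0. Averaged over genotypes (0) DESeq2 called 1 and leaving out 1 library gave 0 to 3. For the difference between the inhibitor effects (0) DESeq2 called 1365 and leaving out 1 library gave 0 to 4005. ERK target genes called (5), a count added after seeing the data, were 8 by DESeq2 and 3 to 6 with 1 library left out. The causes were not tested.

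The main fit did not pair libraries by replicate number, and whether the numbers mark pairs is not settled by these values. Correlations of same-numbered deviations ran from -0.11 to 0.31, 9 of 18 were over 0.1, and 6 of 12 libraries correlated best with their own number. With a replicate block 43 genes were called under the inhibitor, against 116 in the main fit, and 15 in controls, against 25. The 6 calls of the 5 genes were lost in 56 of 112 fits under other settings: Rasgrp3 in 13, Ntrk2 in 12, Fzd4 in 10 and Dennd2a in 6 of 19 under the inhibitor, and, averaged over treatments, Ret in 15 and Dennd2a in 0 of 18. Of all 650 values of these genes, most never called, 17 gained a call and 3 reversed. Leaving out 1 library gave -0.10 to 0.12 for the inhibitor effect of Dennd2a in knockout tumours, above 0 at 0.12 without knockout control replicate 2 and 0.03 without knockout inhibitor replicate 3. It gave -0.57 to 0.042 for the difference between the inhibitor effects of Ret, above 0 without knockout inhibitor replicate 1. Over 19 settings the MAVS difference under the inhibitor stayed between -1.70 and -0.75 for all 5 genes.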
